A study of Homo sapiens with 30 samples.

Results

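OSGIN1, a gene whose protein restrains cell growth and is induced by oxidative stress, was followed together with 9 genes of the NRF2 pathway (NFE2L2, KEAP1, HMOX1, NQO1, GCLM, GCLC, TXNRD1, SRXN1, and SLC7A11) in RNA-Seq of neuroblastoma (NB) cells treated with the CDK9 and CDK2 inhibitor CYC065. They are 10 of the 26228 genes in the FPKM table and were found in it by symbol, and all 10 are among the 11575 genes whose mean was at least 1 FPKM, which were the genes tested. OSGIN1 was chosen by its strong fall with CYC065 in these same libraries. Its values are therefore given as a description, with no test, and the counts below are over the other 9 genes.

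SH-EP is an established human NB line. Parental SH-EP cells and 4 stable derivatives, which carried WT MYCN or the mutants T58A, S62A, or T58A S62A from a retrovirus under an exogenous promoter, were each treated for 6 hours with DMSO or with 1 μM CYC065. There were 3 libraries per group and 30 in all, and each allele was represented by 1 line. MYCN was listed at 0 FPKM in the 6 parental libraries and was between 5.08 and 20.1 FPKM in the 24 libraries of the MYCN lines. The 7 mesenchymal NB markers checked (PRRX1, SNAI2, VIM, FN1, CD44, YAP1, and WWTR1) were all expressed, with a summed level of 1588 to 3328 FPKM in DMSO and 2300 to 5693 FPKM in CYC065. The 6 adrenergic markers summed to at most 2.19 FPKM. Of these, ISL1 alone averaged at least 1 FPKM in DMSO and none did in CYC065, and PHOX2A was listed at 0 in every library. The 3 markers of blood, epithelial, and endothelial cells summed to at most 0.790 FPKM. Read totals are not given in the sources used here, but the spacing of the lowest FPKM values gave depths, relative to the deepest library at 1, of 0.467 to 1 in DMSO and 0.291 to 0.551 in CYC065. The index sequences of all 6 SH-EP libraries recur among the MYCN-line libraries. The SH-EP libraries may thus have been in a separate library pool, whose effect and that of the MYCN lines cannot be told apart.

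NRF2, the protein encoded by NFE2L2, is the main transcription factor of the antioxidant response. In unstressed cells, KEAP1 binds NRF2 and presents it to a ubiquitin ligase for degradation, and oxidants or electrophiles that modify KEAP1 let NRF2 accumulate, pair with small MAF proteins, and bind antioxidant response elements (AREs) in its target genes. These targets make glutathione (GCLC, GCLM, and the cystine importer SLC7A11), keep thioredoxin and peroxiredoxins reduced (TXNRD1 and SRXN1), and detoxify heme and quinones (HMOX1 and NQO1).

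Promoter sequences are shown for OSGIN1, for the sensor KEAP1, and for GCLC and GCLM, the partners whose levels parted most clearly after CYC065. They are the RefSeq windows of GRCh38.p14 from 250 bases before to 50 bases after an annotated start, read 5′ to 3′ on the gene's strand. Capitals mark matches on either strand to the ARE core TGACNNNGC or to the AP-1 motif TGACTCA, which can overlap where TGACTCA is followed by GC.
OSGIN1 promoter, chr16:83952990-83953289, plus strand: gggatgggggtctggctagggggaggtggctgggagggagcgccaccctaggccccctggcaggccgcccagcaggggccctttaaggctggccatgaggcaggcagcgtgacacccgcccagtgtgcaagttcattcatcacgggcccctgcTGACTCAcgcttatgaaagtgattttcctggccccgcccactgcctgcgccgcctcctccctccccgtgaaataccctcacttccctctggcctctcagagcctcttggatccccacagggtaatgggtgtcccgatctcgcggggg
KEAP1 promoter, chr19:10502722-10503021, minus strand: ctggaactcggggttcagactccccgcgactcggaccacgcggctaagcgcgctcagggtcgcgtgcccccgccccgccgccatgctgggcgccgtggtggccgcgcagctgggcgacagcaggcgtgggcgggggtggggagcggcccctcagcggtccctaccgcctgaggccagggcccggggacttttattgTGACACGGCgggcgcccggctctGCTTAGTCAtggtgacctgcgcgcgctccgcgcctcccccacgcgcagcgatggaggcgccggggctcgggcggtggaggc
GCLM promoter, chr1:93909381-93909680, minus strand: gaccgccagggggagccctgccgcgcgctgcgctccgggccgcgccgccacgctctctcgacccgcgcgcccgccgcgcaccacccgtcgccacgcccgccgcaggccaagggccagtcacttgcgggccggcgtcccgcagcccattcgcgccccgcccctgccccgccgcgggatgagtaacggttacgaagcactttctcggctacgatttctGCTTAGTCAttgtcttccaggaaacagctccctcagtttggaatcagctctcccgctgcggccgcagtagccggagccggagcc
GCLC promoter, chr6:53545052-53545351, minus strand: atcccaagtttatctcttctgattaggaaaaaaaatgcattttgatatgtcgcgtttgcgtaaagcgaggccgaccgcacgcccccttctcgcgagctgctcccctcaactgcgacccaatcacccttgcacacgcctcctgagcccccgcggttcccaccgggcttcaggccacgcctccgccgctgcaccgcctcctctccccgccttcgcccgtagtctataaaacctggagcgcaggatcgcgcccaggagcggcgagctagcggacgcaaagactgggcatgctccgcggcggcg

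The OSGIN1 window held 1 AP-1 match, 97 bases before the start, and no match to the ARE core. The KEAP1 window shown held ARE core matches 54 and 31 bases before the start, whereas a second KEAP1 window, from another annotated start, held none. GCLM held 1 match 34 bases before the start, and GCLC held none. RefSeq windows were matched for 8 of the 10 genes, with 11 windows in all, and 4 of these windows, from 3 genes (KEAP1, GCLM, and TXNRD1), held the ARE core. The ARE core was found in 13.3% of all 35116 windows and the AP-1 motif in 4.95%. HMOX1 and SLC7A11 had no entry. A match is a description of letters, and these windows leave out enhancers.

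Levels are given on both of the available scales. FPKM as deposited are relative to the other RNA in a library, whereas the spike-in scaled values were multiplied so that ERCC spike-ins, synthetic RNAs added by cell number, were level across libraries. A bulk level is an average over the cells of a library, so fewer cells that express a gene and less of its RNA in each cell cannot be told apart. With CYC065, the median of the 11575 genes fell by 1.20 on the log2 scale after spike-in scaling (the mean over the 5 lines) and stood at 0.10 as deposited. Log2 changes are on the scale of log2(FPKM + 0.1), which understates changes of low genes.

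OSGIN1 (GRCh37 chromosome 16, 83964916 to 83999937, plus strand, protein coding, 6 exons in its canonical transcript) was at 12.6, 15.5, and 13.7 FPKM as deposited in the 3 DMSO libraries of SH-EP and at 0.800, 0.649, and 0.705 in the CYC065 libraries. In the WT line it was at 33.4, 25.03, and 22.0 FPKM in DMSO and 1.11, 1.02, and 1.49 in CYC065. In the T58A line it was at 28.9, 29.95, and 33.2 FPKM in DMSO and 1.80, 2.42, and 1.43 in CYC065. Every treated library thus lay far below every DMSO library of its line. In the S62A line it was at 24.3, 25.3, and 24.6 FPKM in DMSO and 1.94, 1.98, and 1.15 in CYC065. In the T58A S62A line it was at 36.6, 30.8, and 38.5 FPKM in DMSO and 1.39, 2.0, and 1.35 in CYC065. In all 5 lines the groups did not overlap on either scale. Because OSGIN1 was chosen by this fall, the separation describes the choice and is not a result. Spike-in scaled, it also does not set OSGIN1 apart. On that scale the groups of the other pathway genes followed here, NQO1 and GCLM included, did not overlap in any of the 5 lines either.

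**Figure D1:**
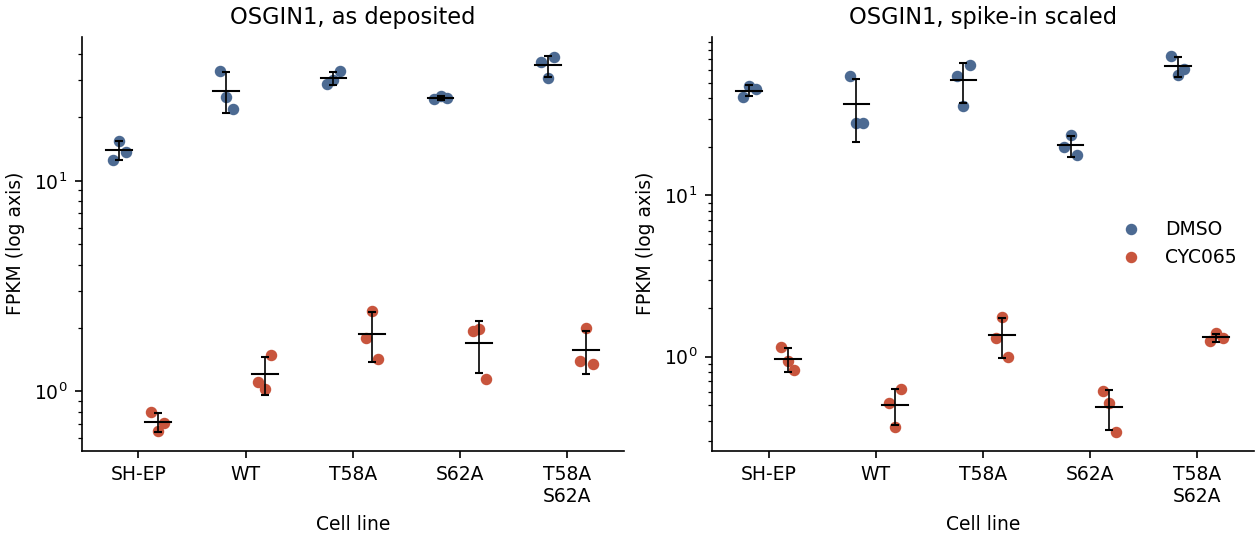
OSGIN1 in each library, as deposited (left) and spike-in scaled (right), in FPKM on a log axis, by cell line. Blue points are DMSO and red points CYC065 libraries, and black bars are the mean ± SD of 3 libraries. As deposited, the DMSO libraries sit between 12.6 and 38.5 FPKM and the CYC065 libraries between 0.649 and 2.42 FPKM.

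Averaged over the 5 lines, the log2 change of OSGIN1 was -5.42 ± 0.11 (SE) spike-in scaled and -4.14 ± 0.09 as deposited, which leaves 2.34% and 5.68% of the DMSO level when 0.1 FPKM is added to both levels. Since OSGIN1 was near 1 FPKM after CYC065, these values depend on the pseudocount, and they became -4.45 and -3.46 with a pseudocount of 1 and -5.58 and -4.23 with 0.01. It ranked 4th and 5th from the lowest change among the 11575 genes on the 2 scales. These ranks describe why OSGIN1 was picked and are not a result. By line, the spike-in scaled change ran from -5.15 in the T58A and S62A lines through -5.40 in SH-EP and -5.48 in the T58A S62A line to -5.90 in the WT line, each ± 0.25, and neighbors in this order are not separated by their errors. The share of the DMSO level left as deposited, again with 0.1 FPKM added to both levels, lay between 4.70% (T58A S62A) and 7.02% (S62A).

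In DMSO, the OSGIN1 level as deposited was 13.9 ± 1.5 FPKM in SH-EP (mean ± SD, n = 3 here and below), 24.7 ± 0.49 in the S62A line, 26.8 ± 5.9 in the WT line, 30.7 ± 2.2 in the T58A line, and 35.3 ± 4.0 in the T58A S62A line. All 12 DMSO libraries of the MYCN lines lay above all 3 of SH-EP, but the libraries of the WT line overlapped those of each other MYCN line and those of the T58A line overlapped those of the T58A S62A line. After spike-in scaling the order changed. SH-EP, at 44.7 ± 3.4 FPKM, then lay between the WT line (37.1 ± 16) and the T58A line (51.9 ± 15), with the S62A line lowest (20.4 ± 3.0) and the T58A S62A line highest (63.4 ± 9.4). MLYCD is a neighbor on the same strand whose annotated span overlaps that of OSGIN1 but whose canonical exons share no base with OSGIN1's exons. As deposited, MLYCD was at 1.77 to 4.65 FPKM in DMSO and 0.216 to 1.40 FPKM in CYC065.

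Of the other 9 genes, those that encode the sensor pair, GCLC, HMOX1, and SRXN1 fell with CYC065 on both scales in all 5 lines, whereas NQO1 rose as a share of RNA in all 5 lines. After spike-in scaling, 8 of the 9 genes were lower in SH-EP by limma at an adjusted p under 0.05, against a background of 76.3% of the genes tested. All 9 were lower in the WT line (background 93.7%), in the T58A line (84.5%), in the S62A line (90.2%), and in the T58A S62A line (76.4%). The gene that did not pass was NQO1 in SH-EP, at -0.32 ± 0.17 (adjusted p = 0.0963). NQO1 in the T58A S62A line lost its call without CYC065 library 1 of that line (-0.41, adjusted p = 0.0561) and NQO1 in the T58A line lost it with the 21 spike-ins of at least 50 FPKM. These shares are near the background, so the number of calls is no result about the 9 genes. Their median spike-in scaled change averaged over lines was -2.18, beside -1.20 for all genes tested.

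As deposited, 5 of the 9 genes were lower with CYC065 in SH-EP (background 33.5%), the WT line (34.2%), and the S62A line (34.6%). The 5 were the same in these lines, namely NFE2L2, KEAP1, HMOX1, GCLC, and SRXN1. They were joined by SLC7A11 in the T58A line, for 6 of 9 (background 33.3%), and by TXNRD1 in the T58A S62A line, for 6 of 9 (background 34.2%). NQO1, SLC7A11, and TXNRD1 were higher in SH-EP (3 of 9, background 42.7%) and in the WT line (3 of 9, background 37%). NQO1 alone was higher in the T58A line (1 of 9, background 38.1%), the S62A line (background 38.8%), and the T58A S62A line (background 38.6%). TXNRD1 in SH-EP (0.10 ± 0.04, adjusted p = 0.0453) lost its call in 9 of 30 leave-one-out fits. The median change of the 9 genes as deposited was -0.83, beside 0.10 for all genes tested.

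**Figure D2:**
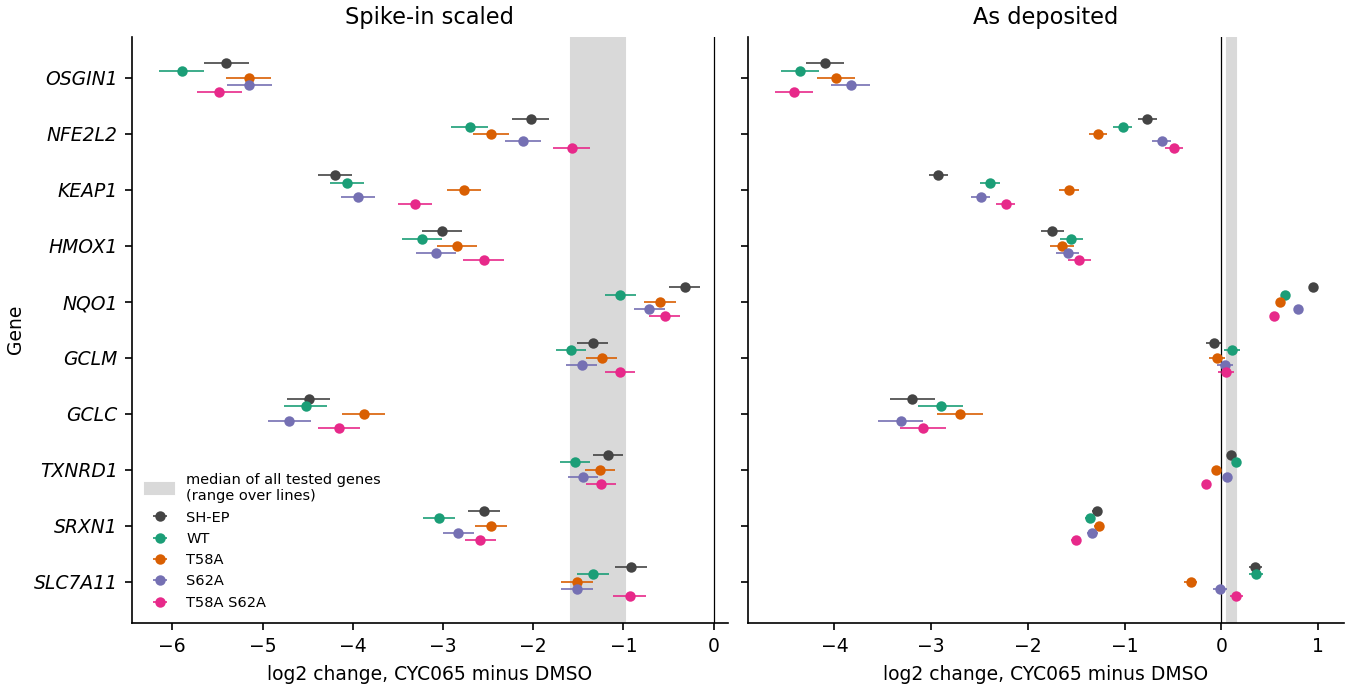
Log2 change with CYC065 against DMSO of the 10 genes in each line, spike-in scaled (left) and as deposited (right). Points are estimates, bars are ± SE, and the gray band is the range over lines of the median of all genes tested. OSGIN1 and then GCLC lie farthest to the left in each line on both panels, followed by KEAP1 in all lines but T58A, and GCLM, TXNRD1, and SLC7A11 lie at or near the band. NQO1 is on or to the right of zero only in the panel as deposited, at 0.54 to 0.94.

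KEAP1 (chromosome 19, 10596801 to 10614234, minus strand), the sensor that marks NRF2 for degradation, was at 34.2 to 52.4 FPKM as deposited over the 15 DMSO libraries and at 4.19 to 16.4 FPKM over the 15 CYC065 libraries. Its mean change was -3.66 ± 0.08 spike-in scaled (adjusted p = 2.44e-23) and -2.32 ± 0.04 as deposited (adjusted p = 2.65e-23). NFE2L2 (chromosome 2, 178083395 to 178257484, minus strand), which encodes NRF2 itself, fell less. It was at 33.4 to 43.2 FPKM in DMSO and 15.8 to 29.2 FPKM in CYC065, with a mean change of -2.18 ± 0.09 spike-in scaled (adjusted p = 1.69e-18) and -0.83 ± 0.04 as deposited (adjusted p = 2.24e-15). KEAP1 and NFE2L2 mRNA, which stood at a ratio of 0.949 to 1.43 in DMSO, therefore stood at 0.204 to 0.935 in CYC065. This ratio of FPKM, which are per length, does not depend on the scaling.

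By log2 change, KEAP1 fell least in the T58A line on both scales. Spike-in scaled, it changed by -3.31 ± 0.19 in the T58A S62A line, -3.94 ± 0.19 in the S62A line, and -4.06 ± 0.19 in the WT line. The response of the T58A line was tested only against that of SH-EP. After CYC065, KEAP1 was at 12.3, 16.4, and 15.9 FPKM in the T58A line, at 4.19, 4.78, and 5.19 FPKM in SH-EP, and at 6.65 to 9.93 FPKM in the libraries of the WT, S62A, and T58A S62A lines, so that no T58A library overlapped any other line. Spike-in scaled, the T58A libraries were at 8.89 to 11.9 FPKM, again above those of every other line. In DMSO, KEAP1 was at 44.1 ± 0.94 FPKM in the T58A line and 36.4 ± 2.6 in SH-EP. The KEAP1 change was -2.77 ± 0.19 in the T58A line and -4.19 ± 0.19 in SH-EP, spike-in scaled, and this difference of 1.42 ± 0.27 was past the threshold (adjusted p = 0.00244). As deposited, NFE2L2 went the other way in the T58A line, where it was at 15.8, 17.6, and 17.8 FPKM after CYC065, below every other CYC065 library of any line. Spike-in scaled, it was at 11.5 to 12.8 FPKM there, above the libraries of the WT line (6.94 to 10.8) and the S62A line (5.53 to 8.63), and the WT line had the lowest change (-2.70 ± 0.20, against -2.47 ± 0.20 in the T58A line). Its change differed from that of SH-EP by -0.51 ± 0.13 as deposited (adjusted p = 0.00728) and by -0.44 ± 0.29 spike-in scaled (adjusted p = 0.65). The KEAP1 to NFE2L2 ratio after CYC065 was 0.867 ± 0.083 in the T58A line, 0.433 ± 0.055 in the WT line, 0.367 ± 0.063 in the T58A S62A line, 0.274 ± 0.035 in the S62A line, and 0.224 ± 0.020 in SH-EP. The T58A CYC065 libraries had a relative depth of 0.316 to 0.358, and the part of depth in these differences was not tested.

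**Figure D3:**
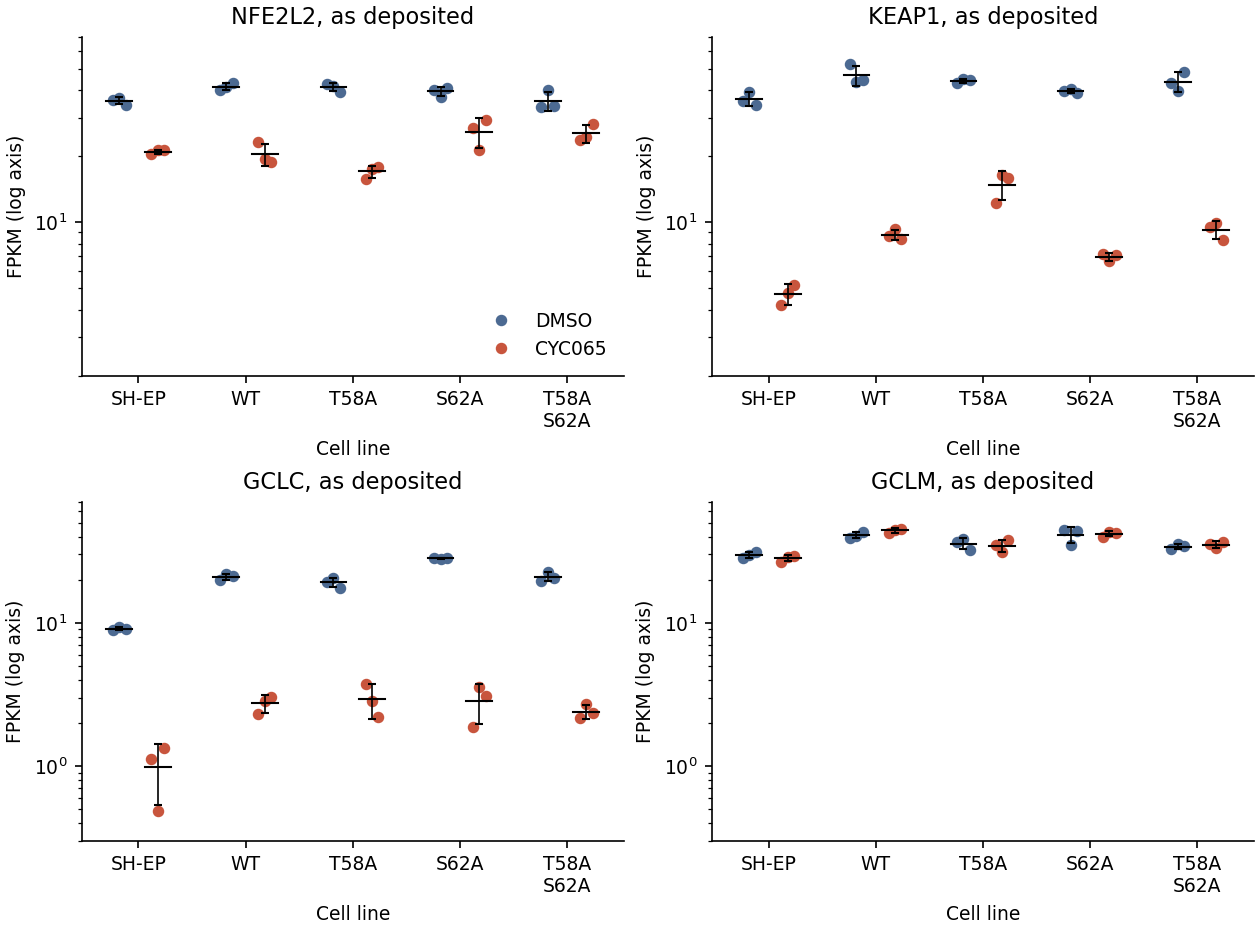
NFE2L2, KEAP1, GCLC, and GCLM in each library, in FPKM as deposited on log axes, by cell line. Blue points are DMSO and red points CYC065 libraries, and black bars are the mean ± SD of 3 libraries. KEAP1 is highest after CYC065 in the T58A line, at 12.3 to 16.4 FPKM, and GCLC falls to 0.484 to 3.76 FPKM while the GCLM groups overlap in every line.

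GCLC and GCLM, the catalytic and the modifier subunit of glutamate-cysteine ligase, which catalyzes the rate-limiting step of glutathione synthesis, responded differently. GCLC (chromosome 6, 53362139 to 53481768, minus strand, 16 canonical exons) was at 8.88, 9.37, and 9.01 FPKM as deposited in the DMSO libraries of SH-EP and at 1.11, 0.484, and 1.33 in the CYC065 libraries. In the S62A line, which had the most GCLC in DMSO as deposited but the least spike-in scaled (23.3 ± 3.0 FPKM, against means of 28.1 to 37.8 in the other lines), it was at 28.5, 28.1, and 28.3 FPKM in DMSO and 1.86, 3.58, and 3.10 in CYC065. The other 3 MYCN lines had 17.6 to 22.7 FPKM in DMSO and 2.16 to 3.76 FPKM in CYC065. The groups were thus far apart in every line. The mean change of GCLC was -4.35 ± 0.11 spike-in scaled (adjusted p = 5.18e-23) and -3.04 ± 0.11 as deposited (adjusted p = 1.47e-18), the lowest of the 9 genes on both scales.

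GCLM (chromosome 1, 94350755 to 94375012, minus strand) was at 28.2 to 44.5 FPKM in DMSO and at 26.6 to 45.5 FPKM in CYC065, and its groups overlapped in all 5 lines as deposited. Its mean change was 0.01 ± 0.04 as deposited (adjusted p = 0.758) and -1.33 ± 0.07 spike-in scaled (adjusted p = 1.11e-15), where the median of all genes fell by 1.20. The GCLC to GCLM ratio was 0.288 to 0.801 in the DMSO libraries and 0.0167 to 0.108 in the CYC065 libraries. SLC7A11 (chromosome 4, 139085251 to 139163503, minus strand), the cystine importer that supplies the ligase, changed by 0.10 ± 0.03 as deposited on average (adjusted p = 0.00325) and by -1.24 ± 0.08 spike-in scaled (adjusted p = 2.54e-14). The average hides opposite signs among lines as deposited. SLC7A11 rose in SH-EP from 30.1 to 33.4 FPKM in DMSO to 38.8 to 41.9 FPKM in CYC065 (log2 change 0.35 ± 0.07, adjusted p = 8e-05), and fell in the T58A line from 49.4 to 50.9 FPKM to 39.7 to 40.9 FPKM (-0.32 ± 0.07, adjusted p = 0.000271). After spike-in scaling these changes were -0.91 ± 0.18 and -1.51 ± 0.18, and their difference of -0.60 ± 0.25 did not pass (adjusted p = 0.29).

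TXNRD1 (chromosome 12, 104609557 to 104744085, plus strand, 17 canonical exons), the cytosolic thioredoxin reductase, had the highest median of the 10 genes over the DMSO libraries, at 427 FPKM as deposited. NQO1 was higher in SH-EP in DMSO, with a mean of 275 FPKM against 251 FPKM for TXNRD1. Over the CYC065 libraries the NQO1 median was also higher, at 476 against 427 FPKM. TXNRD1 was at 245 to 516 FPKM in DMSO and 263 to 498 FPKM in CYC065, and its mean change was 0.02 ± 0.02 as deposited (adjusted p = 0.365) and -1.33 ± 0.07 spike-in scaled (adjusted p = 1.1e-15). As deposited, the CYC065 libraries lay above the DMSO libraries in 2 lines, below them in 2, and overlapped them in 1. SRXN1 (chromosome 20, 627259 to 633844, minus strand, 2 canonical exons), which repairs overoxidized peroxiredoxins, fell from 81.1 to 116 FPKM in DMSO to 32.1 to 46.3 FPKM in CYC065, with no overlap in any line. Its mean change was -1.35 ± 0.02 as deposited (adjusted p = 4.5e-24) and -2.69 ± 0.08 spike-in scaled (adjusted p = 8.37e-22). As deposited the SRXN1 change varied little among lines, from -1.27 to -1.50.

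EID3 is a single-exon gene on the same strand within an intron of TXNRD1 (chromosome 12, 104697517 to 104698983). It is given here because its span lies inside TXNRD1, and it was named after its values were seen. Its values are given only as deposited. Since the spike-in factor was lower in the CYC065 than in the DMSO libraries of each line, spike-in scaling makes a rise smaller. As deposited, EID3 was higher with CYC065 in every line. It was at 0.317 to 2.97 FPKM as deposited over the DMSO libraries and at 21.2 to 124 FPKM over the CYC065 libraries. In SH-EP, EID3 was at 0.317, 0.772, and 0.332 FPKM in DMSO and 21.6, 21.7, and 21.2 in CYC065, and in the S62A line it was at 2.51, 2.36, and 2.36 FPKM in DMSO and 111, 124, and 118 in CYC065. None of its 1467 exonic bases lies in an annotated TXNRD1 exon. Whether intronic TXNRD1 RNA adds to its value was not tested.

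HMOX1 (chromosome 22, 35776354 to 35790207, plus strand, 5 exons), the inducible heme oxygenase, was at 17.3, 14.2, and 15.1 FPKM in the DMSO libraries of SH-EP and at 4.34, 4.37, and 4.95 in the CYC065 libraries. In the S62A line it was at 47.6, 46.4, and 50.7 FPKM in DMSO and at 14.3, 14.6, and 19.5 FPKM in CYC065. The fall was of like size in all lines, from -1.47 to -1.75 as deposited, and its mean was -1.60 ± 0.05 (adjusted p = 9.27e-19), or -2.94 ± 0.10 spike-in scaled (adjusted p = 2.09e-20). NQO1 (chromosome 16, 69740899 to 69760571, minus strand), a quinone reductase often used as a readout of NRF2 activity, was at 238 to 323 FPKM in DMSO and at 356 to 549 FPKM in CYC065 as deposited. All CYC065 libraries lay above all DMSO libraries of their line on this scale and below them after spike-in scaling. The mean change of NQO1 was 0.71 ± 0.02 as deposited (adjusted p = 2.38e-21) and -0.64 ± 0.08 spike-in scaled (adjusted p = 1.38e-08), which was above the median of all genes by 0.61 and 0.56.

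In DMSO, the MYCN lines had more mRNA of most of these genes than SH-EP as a share of RNA. As deposited, 8 of the 9 genes were higher in the WT line (background 31.6%), and 7 were higher in the T58A line (background 30.9%), the S62A line (background 31%), and the T58A S62A line (background 31.2%). HMOX1, GCLC, GCLM, TXNRD1, SRXN1, and SLC7A11 were higher in all 4 lines. KEAP1 was higher in the WT, T58A, and T58A S62A lines and NQO1 in the WT and S62A lines, whereas NQO1 was lower in the T58A S62A line (-0.15 ± 0.04, adjusted p = 0.00232). NFE2L2 passed in no line, with differences of -0.00 to 0.22 and adjusted p-values of 0.0575 to 0.984, although it passed in the WT and T58A lines when only the groups compared were fitted. Some of the smaller calls rested on single libraries. KEAP1 was lost in the T58A line without SH-EP DMSO library 0 or 2 or T58A DMSO library 1 or 2, and in the T58A S62A line without SH-EP DMSO library 0 or 2 or T58A S62A DMSO library 2 (0.19, adjusted p = 0.157). GCLM was lost in the T58A line without SH-EP DMSO library 0 or T58A DMSO library 1 and in the T58A S62A line in 18 of 30 fits, and NQO1 in the WT line was lost without WT DMSO library 0 (0.09, adjusted p = 0.0568).

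As deposited, the largest differences averaged over the 4 MYCN lines were those of GCLC (1.27 ± 0.19, adjusted p = 2.57e-06), HMOX1 (1.16 ± 0.10, adjusted p = 2.4e-10), and TXNRD1 (0.81 ± 0.03, adjusted p = 7.6e-16), but the spike-in scaled values were 0.02 ± 0.19 (adjusted p = 0.922), -0.10 ± 0.18 (adjusted p = 0.603), and -0.45 ± 0.13 (adjusted p = 0.00233). OSGIN1 differed by 1.05 as deposited and by -0.20 after spike-in scaling. Spike-in scaling moved the median of all genes from 0.06 to -1.18, and on that scale no gene of the 9 was higher in any MYCN line. On it, 7 were lower in the WT line (background 88.7%), 5 in the T58A line (background 78%), 7 in the S62A line (background 95.1%), and 5 in the T58A S62A line (background 70.2%). With the spike-ins of at least 50 FPKM, the counts in the T58A and T58A S62A lines were 3 and 2. Relative to that median, GCLC stood 1.20 higher, HMOX1 1.08, OSGIN1 0.98, TXNRD1 0.73, and SLC7A11 0.53, and NFE2L2 and NQO1 stood within 0.06 of it. The spike-in factor was 3.08 to 3.32 in the SH-EP DMSO libraries and 0.720 to 0.936 in those of the S62A line.

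**Figure D4:**
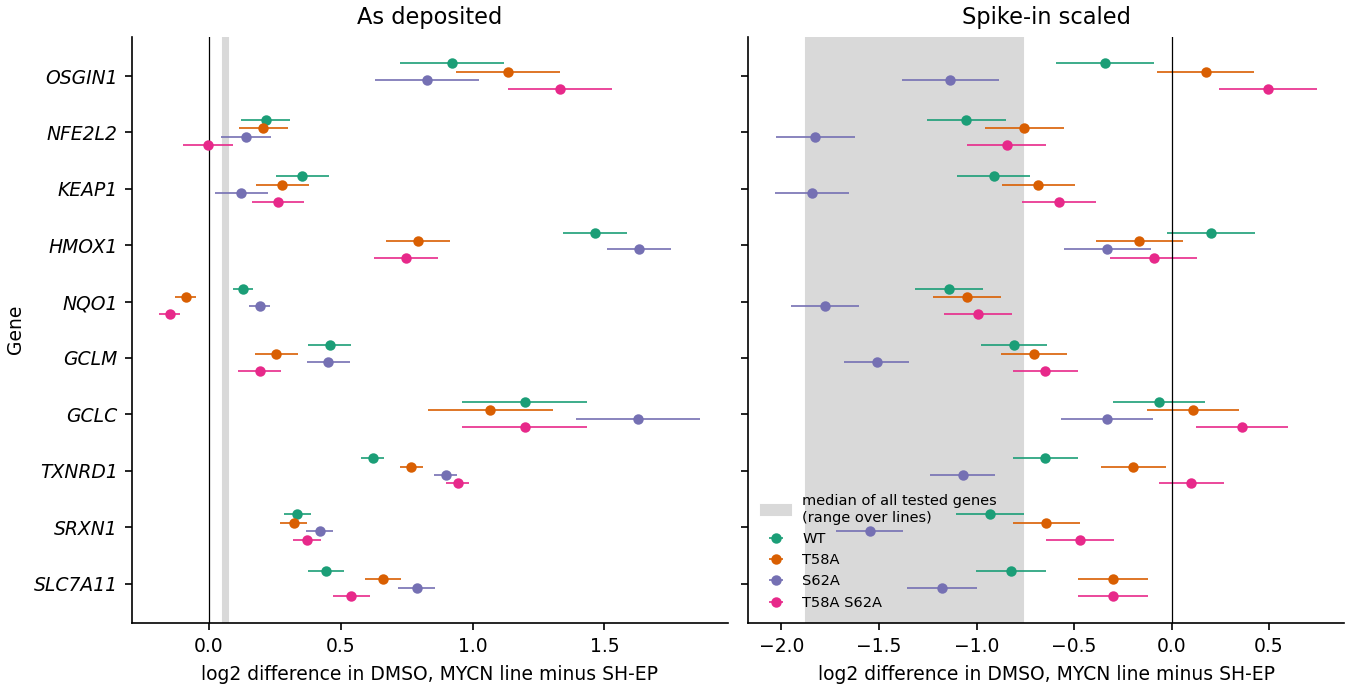
Log2 difference in DMSO between each MYCN line and SH-EP for the 10 genes, as deposited (left) and spike-in scaled (right). Points are estimates, bars are ± SE, and the gray band is the range over lines of the median of all genes tested. In the left panel, the points of all genes but NFE2L2 and NQO1 lie to the right of the band in every line, and the KEAP1 bar of the S62A line reaches it. On the right panel most genes lie below zero with the S62A line lowest for all 10 genes.

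As deposited, HMOX1 separated the MYCN alleles, a split that was not seen after spike-in scaling. Its level in DMSO as deposited was 43.0 ± 2.2 FPKM in the WT line and 48.2 ± 2.2 in the S62A line, but 27.0 ± 2.3 in the T58A line and 26.2 ± 2.8 in the T58A S62A line, and no library of the first pair overlapped the second pair. Against the WT line, HMOX1 was lower in the T58A line by -0.67 ± 0.12 (adjusted p = 0.000261) and in the T58A S62A line by -0.72 ± 0.12 (adjusted p = 0.000106), and the S62A line stood at 0.17 ± 0.12 (adjusted p = 0.357). Spike-in scaled, the HMOX1 level was 58.4 ± 15 FPKM for WT, 47.3 ± 9.3 in the T58A S62A line, 46.1 ± 15 in the T58A line, and 39.6 ± 3.5 in the S62A line. On that scale the differences from WT were -0.37 ± 0.22 in T58A (adjusted p = 0.281), -0.29 ± 0.22 in T58A S62A (adjusted p = 0.292), and -0.53 ± 0.22 in S62A (adjusted p = 0.0343). As deposited, NQO1 was lower in T58A and T58A S62A than in WT, by -0.22 ± 0.04 (adjusted p = 0.000237) and -0.28 ± 0.04 (adjusted p = 1.04e-05), but the sign turned spike-in scaled, at 0.09 ± 0.17 (adjusted p = 0.759) and 0.15 ± 0.17 (adjusted p = 0.49). TXNRD1 as deposited was higher than in the WT line in all 3 mutant lines, by 0.15 ± 0.04 (T58A), 0.28 ± 0.04 (S62A), and 0.32 ± 0.04 (T58A S62A). On the spike-in scale it was lower in S62A (-0.42 ± 0.17, adjusted p = 0.0259) and higher in T58A S62A (0.75 ± 0.17, adjusted p = 0.00378), and the difference in T58A of 0.45 ± 0.17 did not pass (adjusted p = 0.0859). As deposited, 4 of the 9 genes differed from the WT line in T58A (background 23.6%, with SLC7A11 higher), 2 in S62A (background 24.1%, SLC7A11 and TXNRD1), and 4 in T58A S62A (background 23.7%, with GCLM lower). Spike-in scaled, the counts were 0 in T58A (background 8.54%), 7 in S62A, all lower (background 75.1%), and 2 in T58A S62A (background 24.3%, TXNRD1 and SLC7A11, both higher), where the median of all genes stood at 0.28, -0.71, and 0.40. With 1 line per allele, line and allele cannot be told apart. As deposited, without WT DMSO library 0, TXNRD1 and SLC7A11 no longer differed in T58A (0.10 and 0.12, adjusted p = 0.104 and 0.215), and both were also lost without T58A DMSO library 0, with SLC7A11 lost without T58A DMSO library 2 as well. GCLM in T58A S62A was lost without WT DMSO library 2 or T58A S62A DMSO library 0, and TXNRD1 and NQO1 in T58A and T58A S62A passed in the fit over all groups but in no fit of only the 2 lines compared.

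Whether CYC065 acted on these genes differently when a line carried MYCN was tested as an interaction. Spike-in scaled, 1 of the 9 genes passed in the WT line (NQO1, -0.71 ± 0.25, adjusted p = 0.0489, background 16%), 1 in the T58A line (KEAP1, background 2.66%), none in the S62A line (background 4.83%), and 1 in the T58A S62A line (KEAP1, 0.88 ± 0.27, adjusted p = 0.0493, background 5.46%). The median difference of all genes tested was -0.51 (WT), -0.01 (T58A), -0.28 (S62A), and 0.08 (T58A S62A). As deposited, 2 passed in the WT line (KEAP1 and NQO1, background 28.6%), 4 in the T58A line (KEAP1, NFE2L2, NQO1, and SLC7A11, background 23.9%), 2 in the S62A line (KEAP1 and SLC7A11, background 24.6%), and 4 in the T58A S62A line (KEAP1, NQO1, SRXN1, and TXNRD1, background 25.4%). As deposited, KEAP1 fell less in each MYCN line than in SH-EP, with differences of 0.44 ± 0.14 to 1.35 ± 0.14. All 4 of these comparisons share the SH-EP libraries. The spike-in scaled call of NQO1 in the WT line was lost in 20 of 30 leave-one-out fits, and that of KEAP1 in the T58A S62A line in 21, whereas that of KEAP1 in the T58A line held in all 30. As deposited, KEAP1 in the S62A line lost its call without CYC065 library 0 or DMSO library 2 of that line or without CYC065 library 0 or DMSO library 1 of SH-EP (0.36 without the third of these, adjusted p = 0.0825), and SRXN1 in the T58A S62A line lost it in 7 fits.

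The genes whose pattern was most like that of OSGIN1 over the 30 libraries, by Pearson's r of log2(FPKM + 0.1) as deposited, were KMT2B, ZNF282, C19orf48, ZNF142, and KIF18B, each at 0.987. KMT2B is a histone H3 lysine methyltransferase, KIF18B is a kinesin of mitosis, and ZNF282 and ZNF142 are zinc finger proteins. ZNF282 was at 11.9 to 20.5 FPKM in DMSO and 1.69 to 4.87 FPKM in CYC065, and KIF18B was at 12.5 to 21.1 FPKM and 2.76 to 5.01 FPKM. These correlations are dominated by the shared contrast of DMSO and CYC065 libraries, since 1160 genes reached 0.9. Within the 15 DMSO libraries, the 5 genes had r values of 0.721 to 0.953. Of the 9 genes, SRXN1 ranked 7th (0.986), KEAP1 137th (0.967), GCLC 185th (0.964), and NQO1 came near the other end (-0.897). Spike-in scaled, where most genes fell with CYC065, r was 0.959 for SRXN1, 0.974 for KEAP1, 0.988 for GCLC, and 0.530 for NQO1, and that of TXNRD1 went from 0.156 to 0.885. Within the DMSO libraries as deposited, TXNRD1, at 0.845, and SRXN1, at 0.817, were the most like OSGIN1 of the 9, and NQO1 was at -0.260. For OSGIN1, TXNRD1, and SRXN1, all SH-EP DMSO libraries lay below all those of the MYCN lines, and r within lines was not computed.

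Genes of a wider list of 60 NRF2 pathway genes, of which 55 were tested, mostly rose as a share of RNA, as NQO1 did. The list was written with earlier results of these data known. Averaged over the 5 lines, 46 of the 55 rose with CYC065 as deposited and 6 fell, beside 46.9% and 39.8% of all genes tested, and after spike-in scaling 54 fell and none rose, beside 94.4% and 1.57%. The spike-in scaled counts are near those shares and are no result about the list. Its median change was 0.63 as deposited and -0.71 spike-in scaled, beside 0.10 and -1.20 for all genes tested. All 7 tested genes of the thioredoxin and peroxiredoxin group, all 10 of the glutathione group, all 6 of NADPH supply, and all 6 of the heme and iron group rose as deposited. TXN, thioredoxin itself, changed by 0.90 ± 0.04 as deposited and -0.45 ± 0.09 spike-in scaled, and GLRX, a glutaredoxin, by 0.45 ± 0.05 and -0.89 ± 0.08. GPX4, which reduces lipid peroxides, changed by 0.91 ± 0.03 and -0.44 ± 0.09, whereas SLC3A2, the partner chain of SLC7A11, changed by 0.12 ± 0.03 and -1.23 ± 0.08.

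In the NADPH group, PGD, a dehydrogenase that makes NADPH, changed by 0.52 ± 0.02 as deposited and by -0.82 ± 0.09 spike-in scaled. FTH1, the ferritin heavy chain, changed by 1.00 ± 0.05 and -0.35 ± 0.09, and ABCB6, a porphyrin transporter, by 0.21 ± 0.04 and -1.12 ± 0.09. In the detoxification group, 10 of 14 genes rose as deposited and 2 fell, beside 46.9% and 39.8% of all genes tested. AKR1B1, an aldo-keto reductase, changed by 0.86 ± 0.03 and CBR3, a carbonyl reductase, by -1.92 ± 0.18 (-0.49 ± 0.09 and -3.19 ± 0.18 spike-in scaled). Among NRF2 partners, rivals, and degraders, 7 of 11 rose as deposited and 3 fell, beside the same shares of all genes tested. MAFF, a small MAF partner of NRF2, changed by 1.38 ± 0.08 as deposited and stood at 0.07 ± 0.11 spike-in scaled (adjusted p = 0.518), going from 1.50 to 2.86 FPKM in DMSO to 3.52 to 8.26 FPKM in CYC065. BTRC, a ubiquitin ligase subunit that can also take up NRF2, changed by -1.24 ± 0.05 and -2.53 ± 0.09. OSGIN2, the paralog of OSGIN1, was at 8.91 to 13.6 FPKM in DMSO and 4.06 to 7.15 FPKM in CYC065, and its change of -0.88 ± 0.05 as deposited (adjusted p = 3.63e-14) and -2.21 ± 0.10 spike-in scaled (adjusted p = 7.64e-18) stood beside -4.14 and -5.42 for OSGIN1.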

How the data were processed

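RNA-Seq of the 30 libraries was analysed from the deposited FPKM table, whose columns name line and treatment, and 0 columns belonged to other samples. Per the study's methods, ERCC spike-ins were added in proportion to cell number, poly(A) RNA was made into strand-specific libraries, HISAT2 mapped the reads (hg19/GRCh37), and Cufflinks 2.2.1 gave FPKM, which the authors deposited without scaling to spike-ins. The annotation is not given in the sources used here. FPKM carry no read counts, so no count test was used. The share of genes listed at 0 was 40.6% to 45.8%, and a 0 can be a failed estimate. Relative depth was read from the commonest ratio of low FPKM values between libraries. No pair of libraries was identical, and within-group correlations were 0.925 to 0.959. The labels do not say that libraries came from separate cultures, so p-values measure the spread between libraries only.

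Spike-in scaling brought the median log2 level of 55 spike-ins (mean of 1 FPKM or more) to the same value in each library. For the 11575 genes that averaged 1 FPKM or more, log2(FPKM + 0.1) was fitted by group, all 10 groups together, with limma 3.58.1 (R 4.3.3, lmFit, eBayes with trend), with Benjamini-Hochberg adjustment over all genes and a threshold of 0.05. All p-values are from limma and two-sided. Scripts were tested on simulated data. Although the design allowed a test of OSGIN1 in DMSO, none was made, because those libraries entered the contrast that chose it.

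The genes and lists were chosen with earlier results of these data known. Genes named are the 10 members, the 5 genes most like OSGIN1 by Pearson's r, OSGIN2, and the highest and lowest gene of each group of the wider list, and EID3 and MLYCD were added because they overlap a member. A gene that this rule names is not reported here. The wider list holds 12 partners, rivals, and degraders of NRF2, 12 glutathione genes, 7 thioredoxin and peroxiredoxin genes, 6 of NADPH supply, 7 of heme and iron, 15 of detoxification and export, and OSGIN2. Positions of genes are from the lifted GENCODE release 44 annotation of GRCh37. As alternatives, the pseudocount was set to 1 or 0.01, the filter was dropped or raised to 5 FPKM, only the groups compared were fitted, 21 spike-ins averaging 50 FPKM or more were used, libraries were centred on their median, and each of the 30 libraries was left out in turn. A block on the column number and spike-in scaling of the mutant lines against the WT line were added after the data were seen.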

Additional observations from a re-analysis of the deposited data

Results flagged for a closer look

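The results here are differences in CYC065 response between a MYCN line and SH-EP that passed limma's interaction test at an adjusted p under 0.05, given as log2 differences ± SE. The 4 comparisons share the SH-EP libraries, and all values are relative to a SH-EP response that was measured in libraries whose index sequences recur among the MYCN-line libraries.

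KEAP1, the NRF2 sensor, fell less in the T58A line than in SH-EP by 1.42 ± 0.27 spike-in scaled (adjusted p = 0.00244) and 1.35 ± 0.14 as deposited (adjusted p = 3.28e-07). In the T58A S62A line the KEAP1 difference was 0.88 ± 0.27 spike-in scaled (adjusted p = 0.0493) and 0.70 ± 0.14 as deposited (adjusted p = 0.000748). KEAP1 also differed as deposited in the WT line by 0.53 ± 0.14 (adjusted p = 0.00725) and in the S62A line by 0.44 ± 0.14 (adjusted p = 0.0259), where the spike-in scaled values did not pass.

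NQO1, the quinone reductase, differed in the WT line by -0.71 ± 0.25 spike-in scaled (adjusted p = 0.0489) and -0.28 ± 0.06 as deposited (adjusted p = 0.000557). As deposited NQO1 also differed by -0.34 ± 0.06 in the T58A line and by -0.40 ± 0.06 in the T58A S62A line, so that it rose less in these lines than in SH-EP.

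The remaining differences passed as deposited and did not pass after spike-in scaling. SLC7A11, the cystine importer, differed by -0.67 ± 0.10 in the T58A line and -0.37 ± 0.10 in the S62A line. NFE2L2 differed by -0.51 ± 0.13 in the T58A line. In the T58A S62A line, SRXN1 differed by -0.22 ± 0.07 (adjusted p = 0.0329) and TXNRD1 by -0.25 ± 0.06 (adjusted p = 0.00319).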

How the results depend on the processing

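The table's columns carry the numbers 0 to 2 where the labels number replicates 1 to 3, and no label ties one to the other. Deviations from the group mean, as deposited over the genes tested, were compared between the DMSO and the CYC065 library of a line with the same column number. They correlated at -0.0723 to 0.0681 over 15 pairs, so no shared deviation was seen on that scale. Whether such libraries were handled as pairs is not known. A replicate block on that number, chosen after seeing the data, ended no call among the 9 genes. As deposited it added SLC7A11 with CYC065 in the T58A S62A line (0.15, adjusted p = 0.0484), which made the count of higher genes there 2, and the CYC065 response of TXNRD1 in the T58A line against SH-EP (-0.15, adjusted p = 0.0496).

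The falls of GCLC, KEAP1, HMOX1, SRXN1, and NFE2L2 with CYC065 kept their direction and stayed past the threshold under every alternative run on either scale. Counts over the 9 genes moved as follows. For the CYC065 response against SH-EP, spike-in scaled, the count lower in the S62A line was 1 with only the groups compared, the count higher in the T58A S62A line was 0 with a pseudocount of 0.01, no filter, a filter at 5 FPKM, or spike-ins of at least 50 FPKM, and the count lower in the WT line was 0 with a pseudocount of 1, no filter, only the groups compared, or spike-ins of at least 50 FPKM. Leave-one-out fits gave 0 to 1 lower in the T58A line, 0 to 1 higher in the T58A S62A line, and 0 to 2 lower in the WT line, while the difference of KEAP1 in the T58A line stayed past the threshold at 1.21 to 1.55. As deposited, the count lower in the S62A line was 2 with a pseudocount of 1, a filter at 5 FPKM, or only the groups compared, and leave-one-out fits gave 1 to 2 lower and 0 to 1 higher.

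For the MYCN lines against SH-EP in DMSO, spike-ins of at least 50 FPKM gave 3 lower in the T58A line and 2 in the T58A S62A line, and only the groups compared gave 1 higher in the T58A S62A line. As deposited, centring on the median gave 1 lower in the T58A line, and leave-one-out fits gave 0 to 1. Spike-in scaling of the mutants against WT, also chosen after seeing the data, gave 7 lower and 0 higher in S62A, 0 lower and 0 higher in T58A, and 0 lower and 2 higher in T58A S62A, and turned TXNRD1 (-0.423) and SLC7A11 (-0.356) in S62A, NQO1 in T58A (0.0880), and NQO1 (0.148) and GCLM (0.161) in T58A S62A. As deposited, only the groups compared gave 1 lower and 0 higher in T58A and 0 higher in T58A S62A, and leave-one-out fits gave 0 to 2 higher in T58A, with 0 when WT DMSO library 0 was left out.

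For CYC065 against DMSO as deposited, centring each library on its median raised the count of higher genes to 4 for the mean of 5 lines, 4 in the S62A line, 2 in the T58A line, and 3 in the T58A S62A line. In the last of these it was also 2 with a pseudocount of 0.01 or a filter at 5 FPKM, and leave-one-out fits gave 1 to 2.

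Signs turned where values lay near 0. With centring, SLC7A11 in the S62A line became 0.152, GCLM became 0.0591 in SH-EP and 0.140 in the T58A line, and TXNRD1 in the T58A line became 0.127. Leave-one-out fits gave GCLM -0.00989 to 0.0260 for the mean of 5 lines, -0.0752 to 0.0977 in the S62A line, and -0.117 to 0.0242 in the T58A line, SLC7A11 in the S62A line -0.0582 to 0.0271, and NFE2L2 in DMSO -0.0848 to 0.0424 in the T58A S62A line. GCLC in DMSO, mean of 4 MYCN lines, spike-in scaled, was -0.0104 with spike-ins of at least 50 FPKM and -0.00967 to 0.0646 in leave-one-out fits. KEAP1 in DMSO, mean of 4 MYCN lines, as deposited, lost its call without SH-EP DMSO library 2 (0.212, adjusted p = 0.0615). The OSGIN1 change, mean of 5 lines, moved with the pseudocount, as given above. The causes of these moves were not tested. Depth is known only in relative terms, so levels near 1 FPKM, as for OSGIN1 and GCLC after CYC065, have no counting interval.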
